A study of Mus musculus with 16 samples.

Results

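Solute carriers are the genes whose symbol begins with Slc and a family number. Every probe set with 1 such symbol was taken, and a gene measured by several probe sets was read on the probe set with the highest mean log2 intensity over the 16 arrays. This gave 151 genes from 185 probe sets, out of 8251 genes with a probe set of their own. Of the 151, 148 are carriers, and the other 3 (Slc4a1ap, Slc9a3r1 and Slc9a3r2) share the symbol but encode proteins that bind to a carrier. The carriers were divided by what they move into 29 for amino acids and peptides, 10 for sugars, 37 for ions and metals, 2 for nucleosides, 20 of the mitochondrial family, 11 for nucleotide sugars and other cargo of the ER and Golgi, and 39 for monocarboxylates, lipids, vitamins and other organic solutes. The division follows gene families and is coarse.

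Solute carriers sit in the plasma membrane or in organelle membranes and let polar molecules across, either down a gradient or coupled to sodium, protons or a counter-moving solute. Lymphocytes at rest take up little fuel, and activation raises glucose, amino acid and iron uptake, with Slc2a1, Slc7a5 with its heavy chain Slc3a2, and Slc1a5 the best known carriers of that switch. The mitochondrial family, Slc25, exchanges nucleotides, phosphate and metabolites across the inner mitochondrial membrane.

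The arrays, Affymetrix mouse oligonucleotide arrays, covered 6 sorted populations in 3 pairs of an innate-like and an adaptive member. Wild-type C57BL/6 spleens gave NKT cells (CD3+CD4+NK1.1+, n = 3), CD4 T cells (CD4T, CD3+CD4+NK1.1-, n = 3) and B2 cells (IgM intermediate, IgD high, CD11b-, n = 2), and the peritoneum of the same strain gave B1 cells (IgM high, IgD intermediate, CD11b+, n = 2). CD8aaT cells (TCRb+CD8a+CD8b-, n = 3) and CD8abT cells (TCRb+CD8a+CD8b+, n = 3) came from RTOC, as the labels abbreviate it. They had been selected with the agonist Smcy at a high dose written as 10 mM and at a low dose of 100 nM. Agonist dose and lineage are therefore 1 factor in the CD8 pair, and tissue and lineage are 1 factor in the B cell pair. The ages of the mice and the strain behind RTOC are not stated in the labels. The design text calls the replicates biological but names no animals, and a p-value here reflects how far these samples scatter, which may be technical. In sorted bulk RNA, fewer cells carrying a transcript and less transcript per cell cannot be told apart.

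A difference is the mean log2 intensity of the innate-like group less that of the adaptive group, with its SE from limma fitted to all 16 arrays. A gene was called when its p, adjusted by Benjamini-Hochberg over 12422 probe sets, was under 0.05. Array medians ran from 30.4 to 76.2 intensity units, close within a pair and far apart between pairs, so levels were tested only within a pair. Replicate 1 stood apart in NKT and CD4T cells. There the log2 difference between replicate 1 and another replicate had an SD of 0.383 to 0.634 over all probe sets, against 0.126 in NKT and 0.162 in CD4T between replicates 2 and 3. The solute carriers shared in this, for example Slc20a1, a sodium-phosphate cotransporter, whose first replicate minus the mean of the others was -2.63 in CD4T and -1.51 in NKT cells. A shift of more than 1 in either group was seen in 8 of the 151 solute carriers (5.30%) and in 864 of 8251 genes (10.5%). The 3' to 5' ratio of the beta-actin control, a measure of RNA integrity, was 6.57 to 11.6 in CD8abT and 5.15 to 5.80 in CD8aaT cells. On replicate 1 it was 7.02 in CD4T and 5.34 in NKT cells, against 3.59 and 3.71 in CD4T and 3.56 and 3.72 in NKT cells on replicates 2 and 3. B1 arrays had 4.86 to 5.04 and B2 arrays 4.19 to 5.31. The same ratio of the Gapdh control was 24 and 30.4 on CD8abT replicates 1 and 2 and 20.9 and 17.6 on those of CD8aaT. On replicate 3 it was 9.47 in CD8abT and 7.37 in CD8aaT cells, and in the other groups 5.11 to 8.48.

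Of the 151 genes, 124 had an entry in a RefSeq promoter table of build GRCm38.p6. The 250 bases before the start of 3 mitochondrial carriers are shown because this family held the largest differences of the T cell pairs and 1 of the 2 calls of the B cell pair. They lie at chrX:137038303-137038552 for Slc25a53, chr8:46211063-46211312 for Slc25a4 and chr8:22398622-22398871 for Slc25a15, all on the minus strand, and are written 5′ to 3′ along the gene. Where the table had 2 starts (Slc25a53 and Slc25a15), the outermost was used. Capitals mark the matches found.
Slc25a53: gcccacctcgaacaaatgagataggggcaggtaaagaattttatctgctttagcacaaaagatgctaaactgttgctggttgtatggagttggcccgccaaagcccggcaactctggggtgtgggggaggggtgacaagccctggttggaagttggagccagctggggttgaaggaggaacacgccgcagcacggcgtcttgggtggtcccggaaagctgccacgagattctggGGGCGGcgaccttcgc
Slc25a4: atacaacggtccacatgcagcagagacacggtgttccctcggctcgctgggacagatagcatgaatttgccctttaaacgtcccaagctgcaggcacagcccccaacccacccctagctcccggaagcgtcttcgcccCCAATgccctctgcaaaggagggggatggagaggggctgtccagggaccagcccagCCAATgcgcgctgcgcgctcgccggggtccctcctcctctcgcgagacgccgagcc
Slc25a15: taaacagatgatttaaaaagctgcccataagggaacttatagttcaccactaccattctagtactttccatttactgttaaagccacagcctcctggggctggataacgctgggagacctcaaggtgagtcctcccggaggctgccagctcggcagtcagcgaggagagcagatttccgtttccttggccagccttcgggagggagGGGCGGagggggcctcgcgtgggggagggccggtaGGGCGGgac
Both strands were searched for 7 motifs, among them the GC box GGGCGG and the CCAAT box, and no motif overlapped another in these windows. Slc25a53 held 1 GGGCGG, beginning 16 bases before the start, and Slc25a15 held 2, at 44 and 9 bases. Slc25a4 held none of these but 2 CCAAT, at 112 and 56 bases. GGGCGG was present in 32.7% and CCAAT in 33.8% of the 32851 promoters of the table in windows of the same length, so such matches are common. The other motifs had no match in these 3 windows: the TATA box TATAAA, found in 12.4% of promoters, the E-box CACGTG in 6.02%, the NRF1 motif in 3.74%, the AP-1 motif TGANTCA in 6.75% and the octamer ATTTGCAT in 1.6%. G and C made up 58.0%, 64.8% and 57.6% of the windows of Slc25a53, Slc25a4 and Slc25a15, against a median of 52.4% over the table. The window of Slc7a7, at the outermost of 5 starts, was searched in the same way and is not shown. It held no match to any of the 7 motifs, and G and C made up 48.8% of it.

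Few solute carriers separated an innate-like population from its adaptive counterpart. In NKT cells 3 of 151 were called, Slc25a53 and Slc2a3 higher and Slc25a4 lower. No solute carrier was called in the CD8 pair, and Slc7a7 and Slc25a15 were called, both higher, in B1 cells. The background of all 8251 genes was 1.87% called in NKT cells (1.25% higher, 0.618% lower), 0.218% in the CD8 pair (0.182% higher, 0.0364% lower) and 1.36% in B1 cells (0.970% higher, 0.388% lower). The shares of solute carriers called were thus near those of all genes. With the replicate number as a block, which the T cell pairs call for, 9 solute carriers were called in NKT cells (6 higher, 3 lower) where 5.64% of all genes were (3.60% higher, 2.04% lower), and 1 in the CD8 pair where 3.81% were. In the B cell pair, whose numbers were not taken to pair samples, that fit called 3.41% of all genes.

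The bulk of the family differed little. Median differences were -0.05 in NKT cells, -0.07 in the CD8 pair and -0.06 in the B cell pair, beside -0.02, -0.04 and -0.05 over all genes. Differences beyond 0.5 in either direction were found for 10 (6.62%), 6 (3.97%) and 9 (5.96%) solute carriers, against 6.50%, 8.14% and 7.65% of all genes. Groups did not overlap for 19 genes in NKT against CD4T cells (8 higher, 11 lower, 12.6% of 151), for 14 in the CD8 pair (7 each way, 9.27%) and for 52 in the B cell pair (18 higher, 34 lower, 34.4%). Over all genes the shares without overlap were 13.3% (8.21% higher, 5.08% lower), 12.6% (6.67% and 5.94%) and 33.7% (12.9% and 20.8%), so that the counts in the NKT and B cell pairs lie close to the background and that in the CD8 pair below it. At an unadjusted p under 0.05 there were 13, 6 and 8 solute carriers, or 8.61%, 3.97% and 5.30%, against 7.13%, 7.01% and 5.67% of all genes.

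**Figure D1:**
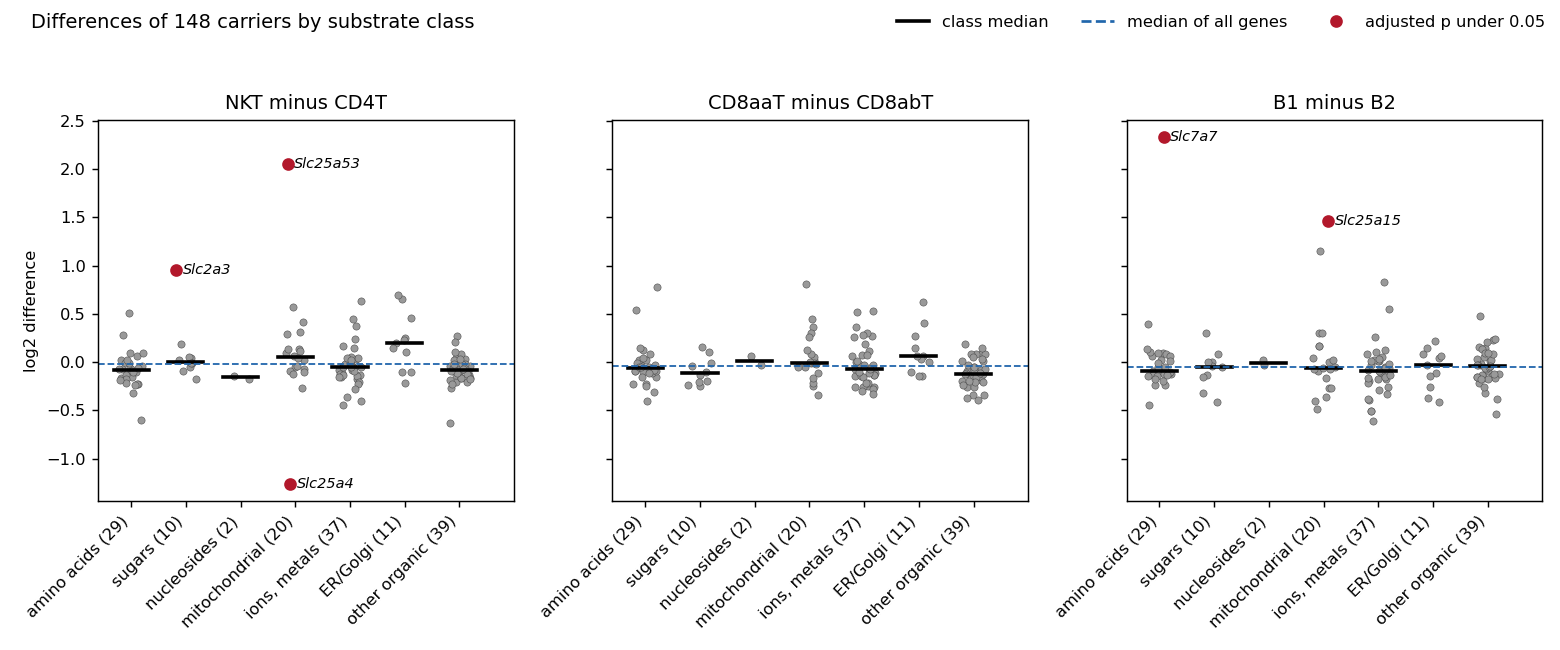
Differences in log2 intensity (vertical axis, innate-like minus adaptive) of the 148 carriers, 1 point per gene, by substrate class with its number of genes, in each of the 3 pairs. Black bars are class medians, the blue dashed line is the median of all genes, and red points passed the test; class medians lie between -0.15 and 0.20, and 5 points are red.

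Of the 5 calls made in single pairs, 3 were of mitochondrial carriers, each a different gene. Of all genes, 1.87% were called in NKT, 0.218% in CD8aaT and 1.36% in B1 cells. Slc25a53, a family member whose cargo is not established, was read at log2 8.70, 9.42 and 9.5 on the NKT arrays and at 7.21, 7.19 and 7.07 on the CD4T arrays. All NKT arrays lay above all CD4T arrays, by 1.49, 2.23 and 2.43 within replicates 1, 2 and 3. The difference was 2.05 ± 0.25 (4.14-fold, adjusted p = 0.000295), and 2.33 ± 0.23 with the first array of every group left out (adjusted p = 0.0022). In the CD8 pair the 3 CD8aaT arrays read 8.17, 8.07 and 7.29 and the 3 CD8abT arrays 6.97, 7.07 and 7.06. Again the groups did not overlap, but CD8aaT replicate 3 came within 0.22 of its partner, and the difference of 0.81 ± 0.25 did not pass (adjusted p = 0.503, and 0.06 with the replicate block). B1 cells read 9.44 and 10.05 and B2 cells 9.29 and 9.59, overlapping groups with a difference of 0.30 ± 0.31. Averaged over the 3 pairs the difference was 1.05 ± 0.16 (adjusted p = 0.00202), and 1.88% of all genes were called on that average. The NKT difference exceeded the B cell difference by 1.75 ± 0.39 (adjusted p = 0.045), while the F test of unequal differences over the 3 pairs missed the threshold (adjusted p = 0.0692, and 0.0153 with the block).

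Slc25a4, which encodes the ADP/ATP exchanger of the inner membrane that supplies the cytosol with ATP, moved the other way in NKT cells. Its level was 7.98, 7.03 and 7.22 on the NKT arrays against 8.57, 8.73 and 8.72 on the CD4T arrays. NKT cells were lower on every array, with -0.59 within replicate 1 and -1.70 and -1.5 within replicates 2 and 3. The fit gave -1.26 ± 0.25 (2.40-fold lower, adjusted p = 0.0143), and -1.60 ± 0.27 without the first arrays (adjusted p = 0.0275). The call was lost without NKT replicate 2 or 3 or CD4T replicate 2 or 3, at adjusted p = 0.0654 to 0.0982. CD8aaT arrays at 9.05, 8.87 and 9.69 overlapped CD8abT arrays at 8.99, 8.67 and 9.18. In the B cell pair the order was that of higher B1 levels, 10.05 and 9.95 against 9.02 and 8.66 in B2 cells, without overlap, and the difference of 1.15 ± 0.30 did not pass (adjusted p = 0.13). The NKT and B cell differences of Slc25a4 differed by -2.42 ± 0.39 (adjusted p = 0.00429). Slc25a5, the related ADP/ATP exchanger, differed by 0.04 ± 0.16 in NKT cells (95% interval -0.31 to 0.40), by -0.16 ± 0.16 in CD8aaT and by -0.07 ± 0.20 in B1 cells.

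Slc25a15, which carries ornithine into mitochondria for the urea cycle, stood out in B1 cells. It was read at 8.91 and 9.54 in B1 against 7.67 and 7.87 in B2 cells, apart by 1.24 and 1.67 within the replicate numbers. The difference was 1.46 ± 0.20 (2.75-fold, adjusted p = 0.00142). NKT arrays (6.39, 6.38 and 6.42) and CD4T arrays (6.42, 6.82 and 6.76) touched, with a difference of -0.27 ± 0.17, and the CD8 pair gave 0.05 ± 0.17. Set against the B1 difference, that of the NKT pair was -1.73 ± 0.26 and that of the CD8 pair -1.41 ± 0.26 (adjusted p = 0.00266 and 0.0215).

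Markers of other cells were read beside the T cell results. In NKT cells 2 of 12 macrophage markers (Lyz2 and Csf1r) and 1 of 11 B cell markers were called higher, beside 1.25% of all genes. The B cell marker was Cd72, a B cell surface receptor (1.90 ± 0.38, adjusted p = 0.0158). Summed intensity of the B cell list was 1250 to 2070 in NKT, 998 to 1620 in CD4T and 14500 to 14800 in B1 cells, and that of the macrophage list 1390 to 1690 in NKT and 1350 to 2640 in CD4T cells. None of the T cell, erythroid and platelet, granulocyte and mast cell or stromal markers was called in NKT cells, although the block called Zap70 higher and Cd247 and Cd5 lower. In the CD8 pair no marker was called. With the block, which called 3.81% of all genes there, 4 of 10 T cell markers (Cd2, Cd5, Cd6 and Thy1) were lower in CD8aaT cells. The macrophage markers Lyz2 and Lgmn were then also lower and Ctss higher. The part of these markers in the differences of Slc25a53, Slc25a4, Slc2a3 and Slc1a5 was not tested.

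The remaining mitochondrial carriers were not called. Slc25a28, mitoferrin 2, which brings iron into mitochondria, lay at 7.49, 7.23 and 7.22 in NKT and 6.87, 6.63 and 6.73 in CD4T cells. The 2 groups did not overlap, and the difference of 0.57 ± 0.25 did not pass (adjusted p = 0.713, and 0.0274 with the replicate block). Slc25a47 was read without overlap at -0.34 ± 0.14 in the CD8 pair (adjusted p = 0.747). Of 20 mitochondrial carriers, 1 was called higher and 1 lower in NKT cells, none in CD8aaT and 1 higher in B1 cells, around class medians of 0.05, 0.00 and -0.06.

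**Figure D2:**
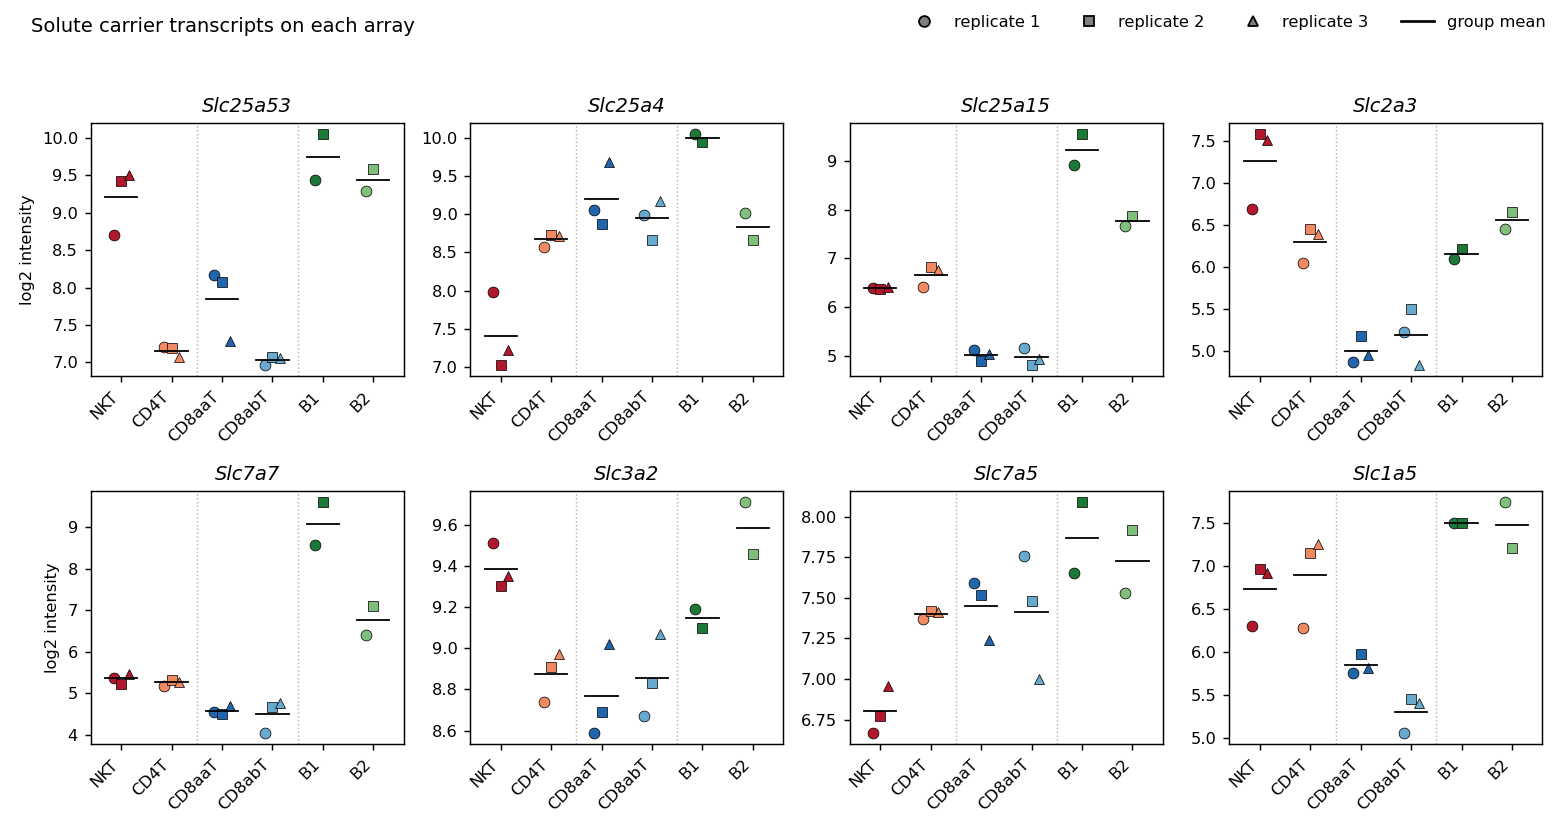
Log2 intensity (vertical axis) of 8 solute carriers on each array, with groups on the horizontal axis, pairs separated by dotted lines, symbols for the replicate number and bars for group means. Slc25a53 is high on all 3 NKT and all B cell arrays, Slc25a4 is lowest on the NKT arrays, and Slc7a7 and Slc25a15 are highest on both B1 arrays. Whether the arrays of different pairs were normalized together is not stated, and array medians differ between pairs.

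Among sugar carriers only Slc2a3 was called. It encodes GLUT3, a glucose transporter of high affinity. NKT arrays read 6.69, 7.58 and 7.51 and CD4T arrays 6.05, 6.45 and 6.39. Every NKT array was above every CD4T array, by 0.64, 1.13 and 1.12 within the replicate numbers. The difference of 0.96 ± 0.23 (1.95-fold) passed narrowly (adjusted p = 0.0495, 0.00117 with the block), and it was called in 9 of 28 alternative settings. A dimmer probe set of Slc2a3 showed 0.11 ± 0.28, so the call rests on the brighter of the 2. In the CD8 pair Slc2a3 differed by -0.19 ± 0.23 and in the B cell pair by -0.41 ± 0.28, where B1 arrays (6.10 and 6.21) lay below B2 arrays (6.45 and 6.66). The test that the 3 pairs differ for Slc2a3 missed the threshold (adjusted p = 0.112) and passed with the block (adjusted p = 0.00289).

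Slc2a1, the GLUT1 transporter that activated T cells depend on, read 5.46, 5.33 and 5.46 in NKT and 5.54, 5.35 and 5.25 in CD4T cells. The groups overlapped, with a difference of 0.04 ± 0.12 and a 95% interval of -0.22 to 0.30. B1 arrays at 6.38 and 6.65 were above B2 arrays at 6.23 and 6.20, a difference of 0.30 ± 0.15 that did not pass (adjusted p = 1). All 10 sugar carriers lay between -0.17 and 0.96 in NKT, -0.25 and 0.16 in CD8aaT and -0.41 and 0.30 in B1 cells.

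Of 29 amino acid and peptide carriers, 1 was called in a single pair. This was Slc7a7, the light chain y+LAT1, which pairs with the heavy chain Slc3a2 and exchanges cationic for neutral amino acids, and which macrophages are known to express. B1 arrays read 8.56 and 9.60 and B2 arrays 6.41 and 7.09. The groups stood 2.15 and 2.51 apart within the replicate numbers, giving 2.33 ± 0.31 (5.03-fold, adjusted p = 0.000869), the largest B cell difference of the family. In the T cell groups Slc7a7 was dim, between 5.17 and 5.47 in NKT and CD4T and between 4.05 and 4.76 in both CD8 groups. There the differences were 0.10 ± 0.25 and 0.09 ± 0.25. The NKT and CD8 differences minus the B1 difference were -2.23 ± 0.40 and -2.24 ± 0.40 (adjusted p = 0.009 and 0.0177). The average over the 3 pairs, 0.84 ± 0.16 (adjusted p = 0.0115), therefore comes mostly from B1 cells.

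Macrophage markers were read beside Slc7a7, because B1 cells came from the peritoneum. Of 12 measured markers on a list of 14, Lyz2, the macrophage lysozyme, was higher in B1 cells (2.29 ± 0.43, adjusted p = 0.0135) and Lgmn, a lysosomal protease, lower (-1.20 ± 0.25, adjusted p = 0.032). The other 10 did not pass, among them Csf1r (-0.02 ± 0.17), Cd14 (-0.06 ± 0.20), Cd68 (0.44 ± 0.16) and Adgre1 (0.40 ± 0.18). Summed intensity of the list was 4570 to 4840 in B1 and 4330 to 5220 in B2 cells, which overlap, but Ctss, a lysosomal protease that B cells also express, had a mean log2 of 11.95 in B1 and 12.01 in B2 cells and so dominates the sum. Gene by gene, 5 of the 12 lay without overlap above B2 and 1 below, where 12.9% of all genes lay above and 20.8% below. RMA gives no zeros, and the lowest of these markers in B1 cells was Mrc1 at log2 4.65. Lyz2 and Csf1r were also higher in NKT cells (2.08 ± 0.35 and 0.60 ± 0.13, adjusted p = 0.00467 and 0.0394), where Slc7a7 was not called. The part of these markers in the Slc7a7 difference was not tested. On the B cell list, 4 of 11 markers were lower in B1 cells (Cd22, Cd72, Cr2 and Fcer2a), beside 0.388% of all genes. None of 10 T cell, 7 erythroid and platelet or 10 granulocyte and mast cell markers was called in the B cell pair, and of 10 stromal and epithelial markers Epcam was higher, by 1.17.

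The amino acid carriers of activated lymphocytes gave mixed values in NKT cells. Slc3a2, the CD98 heavy chain, was read at 9.51, 9.30 and 9.35 in NKT and 8.74, 8.91 and 8.97 in CD4T cells. Slc7a5, its light chain LAT1 for leucine and other large neutral amino acids, was read at 6.67, 6.77 and 6.96 in NKT and 7.37, 7.42 and 7.41 in CD4T cells. Neither pair of groups overlapped, the heavy chain lying above and the light chain below the CD4T level on every array. Slc3a2 differed by 0.51 ± 0.15 (adjusted p = 0.146, and 0.0177 with the block) and Slc7a5 by -0.60 ± 0.19 (adjusted p = 0.25, and 0.00718 with the block). Of 28 alternatives, 2 called each of them, the replicate block and array weights. In the B cell pair Slc3a2 lay at 9.19 and 9.10 in B1 and 9.71 and 9.46 in B2 cells, a difference of -0.44 ± 0.18 that was not called (adjusted p = 0.769). The difference of 0.95 ± 0.23 between the NKT and B cell contrasts of Slc3a2 did not pass either (adjusted p = 0.0691, and 0.0074 with the block).

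Slc1a5, the glutamine carrier ASCT2, was the only solute carrier called in the CD8 pair under the replicate block. CD8aaT arrays read 5.75, 5.98 and 5.81 and CD8abT arrays 5.06, 5.45 and 5.40. The groups were apart by 0.69, 0.53 and 0.41 within replicates 1 to 3, and the difference of 0.54 ± 0.25 had an adjusted p of 0.826, or 0.0443 with the block. The beta-actin ratio was also higher on every CD8abT than on any CD8aaT array, and with that ratio as a covariate the difference was 0.25 ± 0.27 (adjusted p = 0.999). In NKT cells Slc1a5 differed by -0.16 ± 0.25, with both first replicates low at 6.30 and 6.28, and in B1 cells by 0.02 ± 0.31. Slc38a2, a sodium-coupled carrier of small neutral amino acids, had a CD8 difference of 0.78 ± 0.34 (adjusted p = 0.817). Its CD8aaT arrays at 6.30, 6.49 and 6.75 overlapped the CD8abT arrays, which ran from 4.81 to 6.51. Slc7a1 (arginine and lysine), Slc7a6 (y+LAT2) and Slc7a11 (cystine) lay between -0.14 and 0.15 in all 3 pairs and were not called. Slc3a1, the heavy chain of kidney cystine transport, was -0.31 ± 0.15 in CD8aaT cells without overlap and was not called (adjusted p = 0.861).

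**Figure D3:**
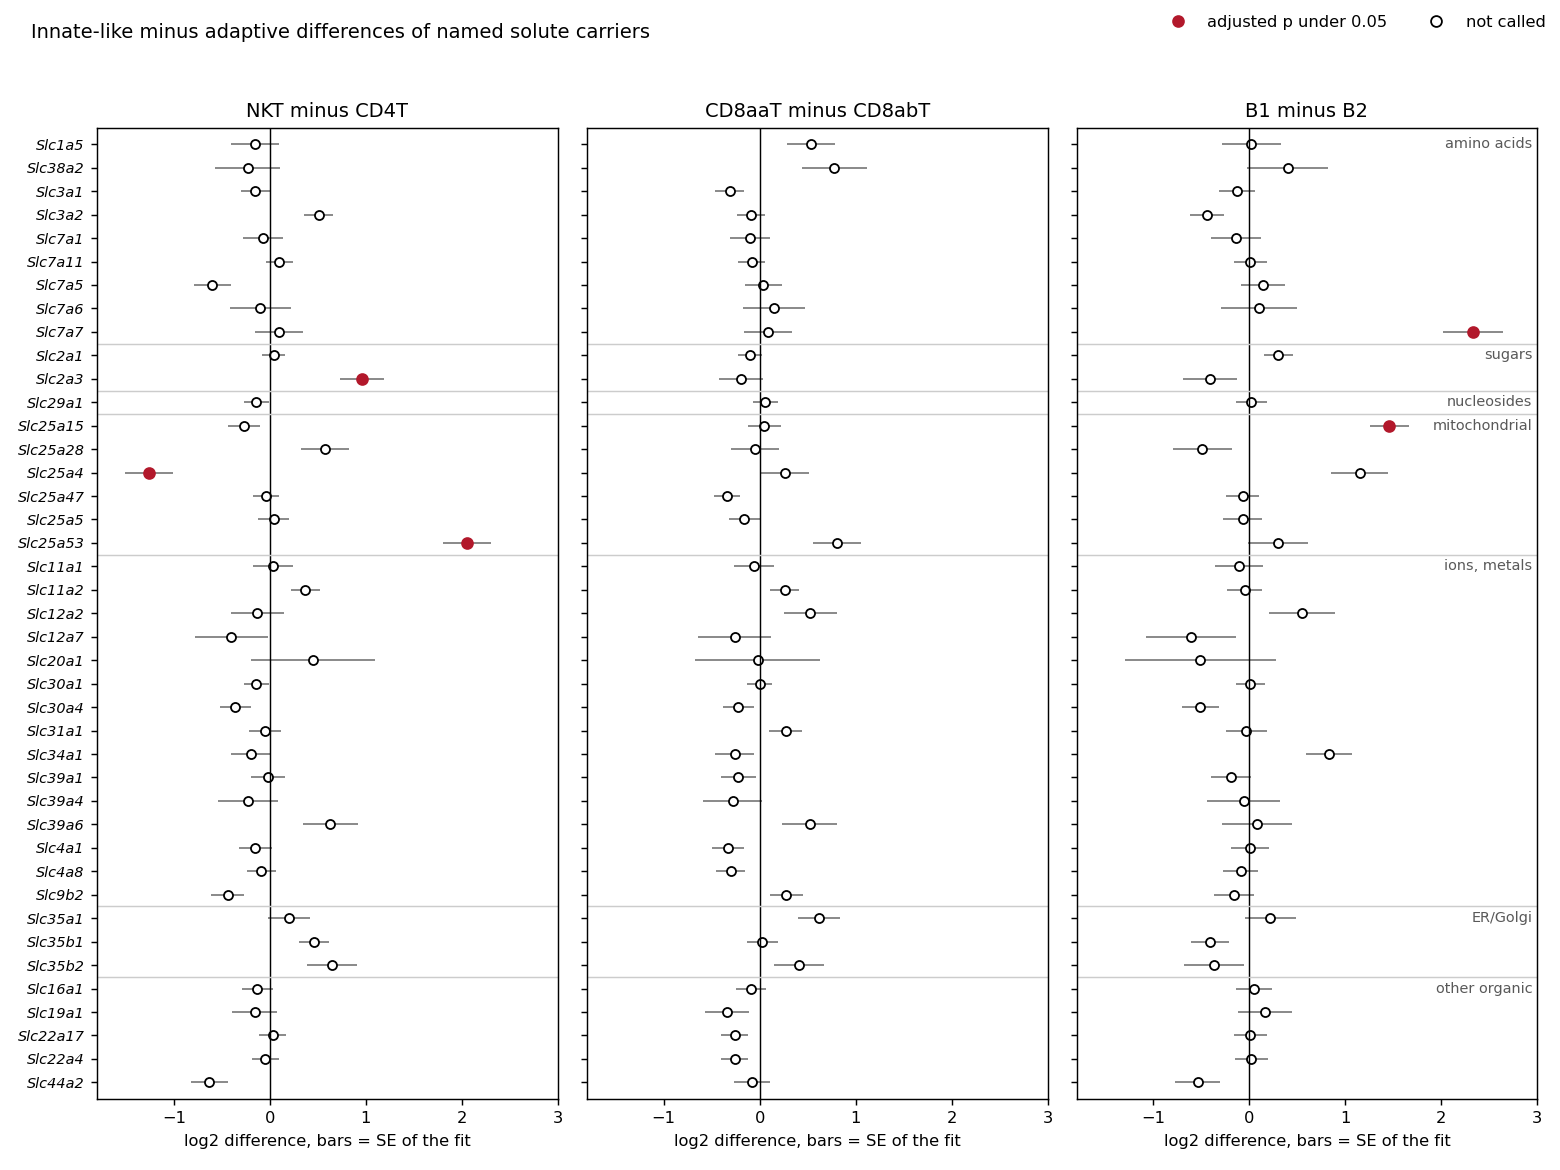
Difference in log2 intensity (horizontal axis, innate-like minus adaptive) with the SE of the fit for 41 solute carriers in 3 pairs, in rows grouped by substrate class. Filled red points passed the test and open points did not; 5 points are filled.

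None of 37 ion and metal carriers was called in any pair. The largest NKT value of the class was that of a zinc importer. Slc39a6 (ZIP6) read 7.77, 8.06 and 8.25 in NKT against 6.52, 7.69 and 8.0 in CD4T cells, overlapping groups with a difference of 0.63 ± 0.29. In the CD8 pair its CD8aaT arrays at 6.97, 6.87 and 7.03 lay above CD8abT arrays at 6.70, 6.39 and 6.21, by 0.52 ± 0.29 (adjusted p = 0.891), a value that turned to -0.02 with the beta-actin ratio as a covariate. Slc39a4 (ZIP4) was measured by 2 probe sets that disagree. The brighter gave -0.23 ± 0.31 in NKT cells, and the dimmer was called at 1.22 ± 0.14 (adjusted p = 0.000217), with mean log2 levels of 7.42 in NKT and 6.20 in CD4T cells. Which of them reports the Slc39a4 transcript was not tested. Slc30a4, which loads zinc into vesicles, lay below its counterpart without overlap in NKT cells (-0.36 ± 0.16) and in B1 cells (-0.51 ± 0.19) and was not called. That probe set was dim in NKT cells, with a mean log2 of 3.76. A still dimmer one gave 0.06 ± 0.16 in NKT and 0.03 ± 0.19 in B1 cells. Slc30a1, the zinc exporter of the plasma membrane, and Slc39a1, a zinc importer, differed by -0.22 to 0.01 in the 3 pairs.

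Carriers of iron, copper, phosphate and chloride followed the same lack of calls. Slc11a2 (DMT1), the importer of ferrous iron, lay at 8.69, 9.16 and 9.10 in NKT and 8.49, 8.66 and 8.67 in CD4T cells, just short of overlap, with a difference of 0.37 ± 0.15 (adjusted p = 0.522). Slc11a1, the phagosomal metal carrier of macrophages, was between -0.11 and 0.03 in all pairs. Slc31a1, the copper importer, differed by 0.27 ± 0.17 in CD8aaT cells and by -0.01 when its probe sets were averaged. Slc34a1, a sodium-phosphate cotransporter known from the kidney, read 6.28 and 6.72 in B1 against 5.61 and 5.73 in B2 cells (0.83 ± 0.24, adjusted p = 0.223). Slc20a1, a sodium-phosphate cotransporter of another family expressed in many tissues, differed by 0.45 ± 0.65 in NKT cells. Within replicates 1, 2 and 3 its differences were 1.2, 0.16 and 0.00. Slc12a2, which brings sodium, potassium and chloride into cells, was 0.55 ± 0.34 in B1 cells, and Slc12a7, which lets potassium and chloride out, was -0.61 ± 0.47. Neither passed (adjusted p = 1 for both). Slc9b2 was -0.44 ± 0.17 in NKT, and Slc4a8 was -0.30 ± 0.15 in CD8aaT cells, both without overlap and without a call. Slc4a1, the anion exchanger of red cells, differed by -0.33 to 0.01 in the 3 pairs.

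The nucleoside carriers Slc29a1 (ENT1) and Slc29a2 (ENT2) let nucleosides equilibrate across the plasma membrane. Slc29a1 read 8.05, 7.88 and 7.83 in NKT and 8.0, 8.11 and 8.07 in CD4T cells, and its differences were -0.14 ± 0.13, 0.06 ± 0.13 and 0.02 ± 0.16 in the NKT, CD8 and B cell pairs. The 95% intervals of these 3 differences all lay within -0.43 and 0.37. Slc29a2 was dimmer, at 4.11 to 5.59 over the 16 arrays, and was not called. Slc28a2, a concentrative nucleoside carrier, was not measured by a probe set of its own and is not analysed here, nor are Slc38a1, Slc16a3 and Slc40a1.

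The ER and Golgi carriers had the highest class median in NKT cells, 0.20, against -0.02 over all genes, and medians of 0.06 in CD8aaT and -0.03 in B1 cells. None of the 11 was called in any pair, and 2 passed as higher in NKT cells with the replicate block, beside 3.60% of all genes. Slc35b1, a nucleotide carrier of the ER membrane, read 9.11, 9.10 and 9.22 in NKT and 8.63, 8.70 and 8.72 in CD4T cells. The 3 within-number differences were alike, 0.48, 0.40 and 0.50, and the fit gave 0.46 ± 0.16 (adjusted p = 0.367, and 0.0196 with the block). Slc35e1, whose cargo is not established and which was chosen after its values were seen, differed by 0.70 ± 0.23 on its brighter probe set (adjusted p = 0.289, and 0.0012 with the block) and by -0.11 ± 0.17 on the other. Slc35b2, which brings the sulfate donor PAPS into the Golgi, read 7.80, 7.53 and 7.55 in NKT against 7.04, 6.91 and 6.97 in CD4T cells, a difference of 0.65 ± 0.26 that was not called in either fit (adjusted p = 0.525 and 0.0695). Slc35a1, the Golgi importer of CMP-sialic acid, was 0.62 ± 0.22 in CD8aaT cells. Its 3 CD8aaT arrays at 6.02, 5.67 and 5.78 lay above the CD8abT arrays at 5.53, 5.10 and 4.97 (adjusted p = 0.624). In B1 cells Slc35b1 lay at 9.10 and 8.78 against 9.58 and 9.12 in B2 cells (-0.41 ± 0.20, adjusted p = 1).

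Among the 39 carriers of other organic solutes no call was made. Slc44a2, a choline transporter-like protein, was the lowest of them in NKT cells at 6.83, 7.0 and 7.10 against 7.16, 7.77 and 7.88 in CD4T cells. The difference of -0.63 ± 0.19 had an adjusted p of 0.191, or 0.0288 with the block. Slc44a2 did not overlap in the B cell pair either, with B1 arrays at 7.29 and 7.36 against 7.87 on both B2 arrays (-0.54 ± 0.23, adjusted p = 0.858). On the average over the 3 pairs Slc44a2 was -0.42 ± 0.12 (adjusted p = 0.141, and 0.02 with the block). Slc16a1 (MCT1), which exports lactate and is dim here with a mean log2 of 3.57, differed by -0.13 to 0.05. Slc19a1, the reduced folate carrier, differed by -0.34 ± 0.23 in CD8aaT cells and by at most 0.16 in size in the other pairs. Slc22a17 and Slc22a4 were each -0.26 ± 0.14 in CD8aaT cells, without overlap and without a call.

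Genes of neighbouring pathways were taken from lists drawn up by function. None of 15 glycolysis genes, 11 genes of the amino acid response and serine synthesis or 11 of iron, zinc and copper handling was called in any pair. With the replicate block the glycolytic enzyme Tpi1 (0.68 ± 0.39, adjusted p = 0.0196) and the stress-response factor Ddit3 (0.61 ± 0.35, adjusted p = 0.0264) passed as higher in NKT cells, and Pdk1, a kinase that restrains pyruvate entry into mitochondria, as lower (-1.08 ± 0.27, adjusted p = 0.00223); the SEs are those without the block. Glycolysis had medians of 0.10, 0.11 and 0.03 in the NKT, CD8 and B cell pairs. In NKT cells, where 1.87% of all genes were called, 2 of 10 nucleoside and purine genes were. The ectonucleotidase Entpd1 (CD39) was higher (1.58 ± 0.16, adjusted p = 4.88e-05), and adenosine kinase, Adk, was lower (-1.44 ± 0.26, adjusted p = 0.00718). Of 12 ion pumps and channels, the calcium-activated potassium channel Kcnn4 was lower (-1.44 ± 0.26, adjusted p = 0.00758). ABC transporters, the pumps driven by ATP, gave 3 calls of 16 in NKT cells, beside the same 1.87% of all genes. These lists are short and were chosen with earlier results of these data known. The lipid exporter Abca1 (1.39 ± 0.30, adjusted p = 0.0294) and the drug efflux pump Abcb1a (1.72 ± 0.39, adjusted p = 0.0398) were higher, and Abcg2 was lower (-1.24 ± 0.18, adjusted p = 0.00123). The block, which called 5.64% of all genes in NKT cells, added Dck and Atp1b3 as lower and Tk2 as higher there. The CD8 and B cell pairs had no call on any of these 7 lists without the block. With it, Clcn3 (0.90, adjusted p = 0.00471), Atp6v1a (0.90, adjusted p = 0.0464) and Kcnn4 (-0.60, adjusted p = 0.0406) passed in CD8aaT cells, beside 3.81% of all genes. In B1 cells, Kcnn4 (0.88, adjusted p = 0.0139), Entpd1 (0.66, adjusted p = 0.0373), Adk (0.89, adjusted p = 0.0399) and Tpi1 (0.76, adjusted p = 0.0496) passed with the block, all as higher. There the block called 3.41% of all genes, and the B cell numbers were not taken to pair samples. Whether these genes differ between the pairs was not tested. Bsg and Emb, the chaperones that carry monocarboxylate transporters to the cell surface, were not called without the block, and Emb was 1.55 ± 0.55 in CD8aaT cells (adjusted p = 0.625, and 0.0388 with the block).

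Over the 3 pairs together, 2 solute carriers were called on the average difference (Slc25a53 and Slc7a7) and 3 for differences that were unequal among the pairs (Slc25a15, Slc25a4 and Slc7a7). Of all genes, 1.88% and 1.89% were called by these tests. With the replicate block the counts were 5 and 11, beside 6.62% and 6.75% of all genes. Without the block, no solute carrier was called in more than 1 pair. With it, Slc25a4 was called in 2, lower in NKT cells and higher in B1 cells (adjusted p = 0.018 in the B cell pair).

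Levels over the 6 groups were described after subtracting each array's median log2 intensity, with no test, because differences between pairs in normalization and in cell type cannot be told apart. The range from the highest to the lowest group mean had a median of 0.58 over the 151 genes, and it exceeded 1 in 25 genes and 2 in 8. Slc12a7, the potassium-chloride exporter, had the widest range, 3.44, from 2.97 ± 0.84 (SD, n = 3) above the array median in CD4T cells to -0.47 ± 0.01 (n = 2) in B1 cells. All 4 T cell groups lay between 2.36 and 2.97 and B2 cells at 0.09. Slc7a7 ran from -0.48 in CD8abT to 2.90 ± 0.82 in B1 cells, with the 4 T cell groups between -0.48 and -0.32 and not ordered beyond their spread. Slc25a15 was at 3.05 ± 0.54 in B1, 1.54 ± 0.17 in B2, 0.98 ± 0.28 in CD4T, 0.72 ± 0.06 in NKT, 0.08 ± 0.13 in CD8aaT and 0.01 ± 0.18 in CD8abT cells, where the neighbours CD4T and NKT and the 2 CD8 groups lie within their spread. Slc25a4 was at 4.25 ± 0.40 in CD8aaT, 3.98 ± 0.24 in CD8abT, 3.82 ± 0.02 in B1, 2.98 ± 0.15 in CD4T, 2.61 ± 0.22 in B2 and 1.73 ± 0.45 in NKT cells. Slc25a53 was at 3.57 ± 0.53 in B1, 3.53 ± 0.49 in NKT, 3.21 ± 0.25 in B2, 2.89 ± 0.52 in CD8aaT, 2.07 ± 0.04 in CD8abT and 1.47 ± 0.04 in CD4T cells. Of 11 B cell markers only Cd72, given above, was called in NKT cells. Its B1 minus B2 difference was -4.05 ± 0.46, and its part in the Slc25a53 levels was not tested. Slc31a1 (copper) was highest in the CD8 groups, at 2.88 and 2.59, and lowest in NKT and CD4T cells, at 0.89 and 0.92. Its dimmer probe set did not put the CD8 groups highest. That probe set had a mean log2, before the median was subtracted, of 7.45 in B2, 5.91 in CD8abT and 5.62 in CD8aaT cells. Array medians were 6.25 and 6.21 in B2 and 4.93 to 4.99 in the CD8 groups, so much of this gap lies in the medians. Slc30a5, a zinc carrier of the secretory pathway, ran from -0.77 in CD8abT to 1.24 in B2 cells, with SDs of at most 0.19. Slc39a8, a zinc and manganese importer, was lowest in B1 and B2 cells, at -1.75 and -1.78. The 6 genes with the widest ranges were the same after quantile normalization of all arrays.

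**Figure D4:**
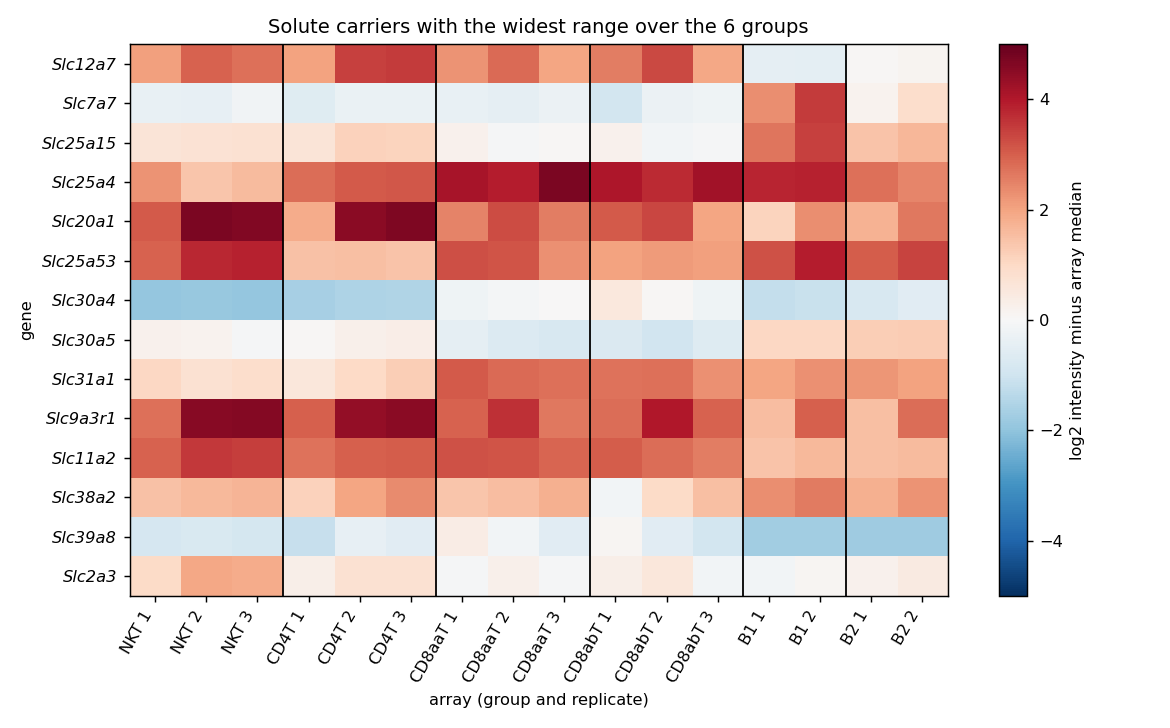
Log2 intensity minus the array median (color) of the 14 solute carriers with the widest range over the group means, 1 column per array and vertical lines between groups. Slc9a3r1 encodes a scaffold, not a carrier. Slc12a7 is dark red on the T cell arrays and near white on the B cell arrays, and Slc20a1 and Slc9a3r1 are paler on replicate 1 of NKT and CD4T than on replicates 2 and 3.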

How the data were processed

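RNA was extracted with TRIZOL from about 100000 sorted cells per sample (50000 for RTOC), amplified and labelled with biotin, per the labels' protocols. The values deposited by the authors are linear intensities, 1 per probe set and array, made with RMA per the submitters' processing notes; its version is not given in the sources used here, nor whether all arrays were normalized as 1 set. RMA corrects background, normalizes between arrays, and compresses the folds of dim probe sets. A level alone does not show expression, and the number of arrays limits the precision.

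Log2 of the deposited intensities was fitted by lmFit and eBayes of limma 3.58.1 under R 4.3.3, with 6 group means and two-sided tests, on 12422 of 12488 probe sets after removing 66 controls, and p-values were adjusted by Benjamini-Hochberg. The fit was tested on simulated data. Gene names came from the platform annotation, and all 151 symbols matched RefSeq by Entrez number; 1 probe set naming a further symbol beside an Slc symbol was left out.

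Replicate numbers were taken to pair samples where every same-numbered correlation of deviations from group means exceeded 0.1: it was 0.76, 0.65 and 0.67 for NKT with CD4T and 0.64, 0.60 and 0.66 for the CD8 groups. With 2 arrays a group, the B cell numbers (0.69) were not. No label states this pairing. Replicates 2 and 3 of NKT cells also correlated with the other number in CD4T cells (0.57 and 0.67), and their independence is not known.

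Named were all called genes, up to 5 per direction and pair with the largest non-overlapping differences, 21 measured of 26 well-known lymphocyte carriers, and genes whose pairs or probe sets disagreed, 41 in all. Members and lists were chosen with earlier results of these data known. Alternatives covered normalization, offset, filters, weights, blocks and arrays left out.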

Additional observations from a re-analysis of the deposited data

Results flagged for a closer look

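Contrasts of 1 pair with another singled out 4 solute carriers (limma, Benjamini-Hochberg over 12422 probe sets per contrast). The NKT minus CD4T difference of Slc25a15 was below the B1 minus B2 difference by a value of -1.73 ± 0.26 (adjusted p = 0.00266), and the CD8aaT minus CD8abT difference was below it by a value of -1.41 ± 0.26 (adjusted p = 0.0215). For Slc7a7 the same contrasts were -2.23 ± 0.40 (adjusted p = 0.009) and -2.24 ± 0.40 (adjusted p = 0.0177). Both genes were higher on 2 of 2 B1 arrays than on any B2 array. Slc25a4 gave -2.42 ± 0.39 for the NKT pair minus the B cell pair (adjusted p = 0.00429), with all 3 NKT arrays below CD4T and both B1 arrays above B2. Slc25a53 gave 1.75 ± 0.39 for the same contrast (adjusted p = 0.045), with all 3 NKT arrays above CD4T and overlapping B cell arrays. The F test of unequal differences over the 3 pairs called the other genes named here but not Slc25a53. Groups of 2 or 3 arrays are too small for a check of single outlying arrays.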

How the results depend on the processing

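Of the called differences, Slc25a53 in NKT cells passed in 28 of 28 alternatives (1.83 to 2.33), Slc7a7 and Slc25a15 in B1 cells in 27 of 28, Slc25a4 in NKT cells in 22 and Slc2a3 in 9. None changed sign. The replicate block called 9 solute carriers in NKT cells (3 without it), 1 in CD8aaT (0), 4 in B1 (2: Slc25a4 and Slc34a1 added, at adjusted p = 0.018 and 0.0335), 5 on the average (2) and 11 as unequal among pairs (3), and it lost no call. In B1 and B2 the samples share only a number (correlation 0.69, on 2 arrays a group). Array weights, whose estimation stopped before convergence, called 47, 2, 4, 7 and 19. Without the first array of every group there were 5 calls in NKT and 1 in CD8aaT cells. With only the arrays of a pair, 1 remained in NKT (Slc25a53) and 0 in B1 cells, where Slc7a7 and Slc25a15 kept their size (adjusted p = 0.184 and 0.162). This setting has no value for the average and unequal tests. Quantile normalization gave 4 calls on the average, and a minimum difference of 1 gave 1. Averaging replicates 2 and 3 of NKT and CD4T, chosen after seeing the data, gave 1 in NKT cells, 1 on the average and 1 unequal. Leaving out each array in turn gave 1 to 3 calls in NKT (1, Slc25a53, without replicate 2 or 3 of NKT or of CD4T), 0 to 0 in CD8aaT, 2 to 3 in B1, 1 to 3 on the average (1 without B2 replicate 1) and 1 to 5 unequal (1 without B2 replicate 1, 5 without NKT replicate 1). A lone B cell array was then assumed to vary like the other groups. Differences turned sign for Slc39a6 in CD8aaT cells with the beta-actin ratio as covariate (0.52 to -0.02) and for Slc31a1 with probe sets averaged (0.27 to -0.01). The cause was not tested for any of these.

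Dim probe sets limit what can be read: 66 of the 151 solute carriers lay at or below the median probe set. The median of all genes moved by less than 0.1 under each normalization.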
